A study of Homo sapiens with 9 samples.

Results

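VEGFA, KDR and ICAM2, 3 genes of vascular growth and endothelial identity, were followed across unexposed and silver-exposed endothelial cells. They were chosen by gene symbol from the 14884 genes named on the array, because VEGFA was higher and KDR and ICAM2 were lower after 5 nm particles, so that contrast is a description of these genes and is given no test. Each symbol had 1 probe set (17009093 for VEGFA, 16976029 for KDR and 16847760 for ICAM2), and all 3 probe sets lay above a log2 intensity of 5, the floor for testing, on all 9 arrays. The cells were EA.hy926, an established human line made by fusing umbilical vein endothelial cells with the A549 lung carcinoma line. The 9 arrays held 3 groups of 3: unexposed cells, and cells that had spent 6 h with silver nanoparticles of either 5 nm or 100 nm, each near its LD50, the median lethal dose. No mass dose stands in the labels, so particle size and dose cannot be told apart. The cells are 1 line, and no label says that arrays of a group came from separate cultures, so the spread between arrays may be technical.

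Vascular endothelial growth factor A, encoded by VEGFA, is a secreted ligand that drives endothelial division, migration and permeability, and its transcript is known to increase with low oxygen and with several forms of cell stress. KDR, also called VEGFR2, is the receptor tyrosine kinase through which most of these responses run. ICAM2 is a cell-surface adhesion molecule kept at endothelial junctions, where it binds leukocyte integrins, and its gene and KDR are widely used as endothelial markers. In bulk samples such as these, fewer cells of a type and less RNA per cell cannot be told apart.

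The array values are log2 intensities made with RMA, the Affymetrix method of background correction, quantile normalization and probe summary. Arrays of the same replicate number in the labels held exactly equal values for 46.9% to 57.6% of probe sets and arrays of different numbers for at most 0.00373%, so each replicate number is treated here as a set, and differences from the unexposed array of the same number stand beside the group means. The median log2 intensity per array was 5.15 to 5.64. After 5 nm particles, limma with Benjamini-Hochberg adjustment called 9 of 12155 tested genes (0.074%), all higher, and 79 genes (0.65%) with the replicate number as a block, 36 higher and 43 lower. After 100 nm particles it called 0 with and without the block, where 0 genes without it and 33 with it had an unadjusted p under 0.05. Between the particles, 5 nm minus 100 nm, it called 8 genes (0.0658%) and 75 with the block (0.617%).

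Levels of endothelial markers were read as context for the labelled cell type. Beside KDR and ICAM2, the context genes were PECAM1, CDH5, TEK, TIE1, VWF and NOS3, of which PECAM1, TIE1, VWF and NOS3 had a probe set and CDH5 and TEK were not analysed here. All 4 measured genes lay above a log2 value of 5 on all 9 arrays. So did 8 of 11 measured epithelial and lung carcinoma markers, and the hybrid line has a carcinoma parent. The same held for 3 of 4 measured leukocyte markers. Array medians were themselves 5.15 to 5.64, so lying above 5 does not tell cell types apart.

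Among the 3 genes the RefSeq promoter table matched KDR, and in its family it matched VEGFB, VEGFC, VEGFD, PGF, FLT1 and NRP2. Windows of KDR, PGF and FLT1 were picked by their array values. The receptor that was lower after 5 nm particles (KDR) is set beside the ligand gene that was higher with VEGFA (PGF). The receptor whose values were equal across the groups of each replicate number (FLT1) is shown as well. Each window is the 250 bases upstream of the annotated gene start, and a second PGF start in the table, inside the gene, is not shown or counted. They are from build GRCh38.p14, all on the minus strand, and are written 5′ to 3′ with every match to GGGCGG, the GC box, and to GGAA, the core bound by ETS factors, in capitals on either strand. The coordinates are chr4:55125596-55125845 for KDR, chr14:74955765-74956014 for PGF and chr13:28495129-28495378 for FLT1.
KDR: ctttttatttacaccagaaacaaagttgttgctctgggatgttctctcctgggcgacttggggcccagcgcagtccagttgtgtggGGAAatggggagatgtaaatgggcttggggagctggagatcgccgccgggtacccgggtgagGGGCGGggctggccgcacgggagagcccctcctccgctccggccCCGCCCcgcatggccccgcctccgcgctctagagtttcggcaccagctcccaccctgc
PGF: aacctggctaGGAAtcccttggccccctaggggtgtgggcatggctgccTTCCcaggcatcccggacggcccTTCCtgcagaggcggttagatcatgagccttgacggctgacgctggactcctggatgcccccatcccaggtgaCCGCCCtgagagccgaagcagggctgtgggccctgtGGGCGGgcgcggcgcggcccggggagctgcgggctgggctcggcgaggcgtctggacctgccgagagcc
FLT1: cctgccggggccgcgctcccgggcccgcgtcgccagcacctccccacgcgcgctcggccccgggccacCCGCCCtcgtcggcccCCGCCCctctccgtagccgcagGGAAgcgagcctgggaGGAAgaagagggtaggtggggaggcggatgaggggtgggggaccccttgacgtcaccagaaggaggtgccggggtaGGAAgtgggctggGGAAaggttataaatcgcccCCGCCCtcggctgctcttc
GC boxes numbered 2 in KDR, 2 in PGF and 3 in FLT1, and 42.6% of 34788 distinct upstream windows of the same length in the RefSeq table hold at least 1. ETS cores numbered 1, 3 and 4, and 92.8% of windows hold at least 1. None of these 3 windows held ACGTG, the core of the hypoxia response element (18.5% of windows), or TGANTCA, the AP-1 site (6.59%). TATAAA, the TATA box, was found once in FLT1 and not in the others (10.8%). A match describes the letters only.

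VEGFA, the ligand, was about doubled after 5 nm particles and stood at its unexposed level after 100 nm particles. Its log2 intensity was 6.98, 6.45 and 6.92 in unexposed replicates 1, 2 and 3, then 7.95, 8.34 and 7.37 with 5 nm particles and 6.98, 6.43 and 6.92 with 100 nm particles. The 3 arrays of the 5 nm group were the highest of the 9, and they did not overlap the other groups. Groups higher without overlap against the unexposed arrays were found for 1.41% of tested genes. The group means were 6.79 ± 0.29 unexposed, 7.89 ± 0.49 with 5 nm and 6.78 ± 0.30 with 100 nm (SD, n = 3 each). Within sets, VEGFA was higher by 0.97, 1.89 and 0.45 on the log2 scale after 5 nm particles, or 1.96-fold, 3.70-fold and 1.37-fold. The mean difference of 1.10 (2.15-fold) ranked 68th from the highest among 12155 genes, and replicate 2, which had the lowest unexposed value, had the largest difference. With the block, the mean difference was 0.71 without the 5 nm array of replicate 2.

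KDR, the receptor, differed the other way. Its log2 intensity was 8.47, 7.26 and 7.97 in unexposed replicates 1, 2 and 3, then 7.77, 6.96 and 7.83 with 5 nm particles and 8.50, 7.26 and 8.01 with 100 nm particles. In each set the 5 nm array was the lowest of the 3, yet the groups overlapped, since the unexposed arrays alone spanned 1.21 between replicate numbers. The group means were 7.90 ± 0.61 unexposed, 7.52 ± 0.49 with 5 nm and 7.92 ± 0.63 with 100 nm (SD, n = 3 each). Within sets the differences after 5 nm particles were -0.70, -0.30 and -0.13, a level 1.62-fold, 1.23-fold and 1.10-fold lower. The mean difference was -0.38, ranked 404th from the lowest among 12155 genes, and replicate 1 held the largest part of it. As a difference of group means, it was -0.09 without the unexposed array of replicate 1, -0.70 without that of replicate 2 and -0.095 without the 5 nm array of replicate 2, because an array left out takes its set's offset with it. With the block these omissions gave -0.30, -0.39 and -0.42, and leaving out the 5 nm array of replicate 1 gave -0.22.

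ICAM2, the adhesion molecule, was also lower with 5 nm particles. Its log2 intensity was 12.54, 12.23 and 12.42 in unexposed replicates 1, 2 and 3, then 12.39, 11.65 and 12.15 with 5 nm particles and 12.54, 12.23 and 12.27 with 100 nm particles. The 5 nm array was the lowest of each set, and the groups overlapped through replicate 1. The group means were 12.40 ± 0.16 unexposed, 12.06 ± 0.38 with 5 nm and 12.34 ± 0.17 with 100 nm (SD, n = 3 each). Within sets the differences after 5 nm particles were -0.15, -0.58 and -0.28 with a mean of -0.33, and the level was 1.11-fold, 1.49-fold and 1.21-fold lower. That mean ranked 532nd from the lowest among 12155 genes. Without the 5 nm array of replicate 2 the mean difference was -0.13, and -0.20 with the block.

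**Figure D1:**
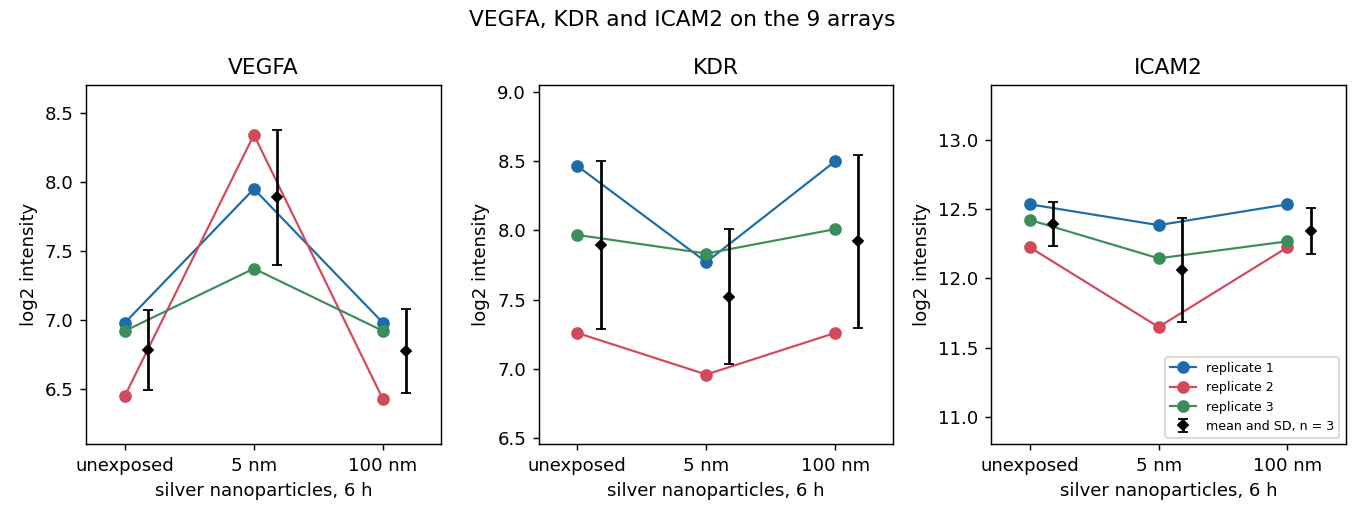
Log2 intensity of VEGFA, KDR and ICAM2 (vertical axes, each spanning the same log2 range) in unexposed cells and after 5 nm or 100 nm silver nanoparticles. Coloured points joined by lines are arrays of 1 replicate number, and black diamonds with bars are group means with SD (n = 3); VEGFA peaks and KDR and ICAM2 dip at 5 nm in each of the 3 replicate numbers.

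The direction was shared by the 3 replicate numbers while the size was not. VEGFA was higher in 3 of 3 sets, where 8.03% of tested genes were higher in all 3, and KDR and ICAM2 were lower in 3 of 3, where 13.4% of tested genes were lower in all 3. These counts were fixed by the choice of genes and are given as a description. VEGFA and ICAM2 had their largest difference in replicate 2 and KDR had its largest in replicate 1. Over all tested genes replicate 2 was also the set with the most genes higher by at least 1 (201, against 63 in replicate 1 and 43 in replicate 3) and lower by at least 0.5 (794, against 154 and 77).

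The 100 nm group was compared with the same unexposed arrays, a contrast the choice of genes did not use. VEGFA had the identical deposited value in both groups in replicates 1 and 3 and differed by -0.02 in replicate 2, a mean of -0.01 (95% interval -0.65 to 0.63, adjusted p = 1 in limma). KDR differed by 0.03, 0.00 and 0.04, a mean of 0.03 (95% interval -0.85 to 0.90, adjusted p = 1 in limma). ICAM2 differed by 0.00, 0.00 and -0.15, a mean of -0.05 (95% interval -0.57 to 0.47, adjusted p = 1 in limma). A probe summary made over a few arrays can set small differences to exactly 0, and the intervals without the block hold the offsets between sets, so small differences were not detectable here. With the block the intervals were -0.88 to 0.86 for VEGFA, -0.32 to 0.37 for KDR and -0.34 to 0.24 for ICAM2. Directly between the particles, VEGFA was higher with 5 nm than with 100 nm by 0.97, 1.91 and 0.45, KDR differed by -0.73, -0.30 and -0.18 and ICAM2 by -0.15, -0.58 and -0.12 in replicates 1, 2 and 3. In ICAM2 replicate 3 the 100 nm array lay between the others and nearer the 5 nm array. The unexposed and 100 nm groups, whose order was not the same in the 3 genes, did not differ beyond their spread.

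Among the other VEGF ligands, PGF was the one with a positive mean difference after 5 nm particles. PGF encodes placental growth factor, a ligand of FLT1. Its log2 intensity was 8.04, 6.99 and 7.86 in unexposed replicates 1, 2 and 3, 8.47, 7.76 and 8.12 with 5 nm particles and 7.99, 7.01 and 7.80 with 100 nm particles. The 5 nm array was the highest of each set, by 0.43, 0.77 and 0.26 over the unexposed one. The mean difference of PGF was 0.49 (95% interval -0.28 to 1.26, and 0.20 to 0.78 with the block, neither adjusted for the genes tested). It did not pass in limma (adjusted p = 1, and 0.164 with the block), and the groups overlapped. VEGFB and VEGFC, a ligand of FLT1 and a lymphatic ligand, had mean differences of -0.05 and -0.08 (adjusted p = 1 each in limma). VEGFD was not analysed here.

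The other receptors did not share KDR's difference in all sets. FLT1, which encodes the high-affinity VEGF receptor VEGFR1, had 1 identical value across the 3 groups of each set (8.60, 8.28 and 8.17), as had FLT4, the lymphatic receptor VEGFR3 (5.70, 4.56 and 4.55). FLT4 reached the floor of 5 in replicate 1 alone. In 19% of tested genes the 5 nm and unexposed arrays were equal in all 3 sets. Since a probe summary over a few arrays can set small differences to exactly 0, equal values do not exclude a small difference. NRP1, a coreceptor that presents VEGFA to KDR, differed by -0.16, -0.50 and 0.00 after 5 nm particles, with a mean of -0.22. NRP2, the related coreceptor, differed by 0.00, -0.18 and 0.02. None of the 7 measured family members beside VEGFA and KDR passed in limma in any of the 3 comparisons, with or without the block. Of these 7, 1 had a positive and 4 a negative mean difference after 5 nm particles, with a median of -0.05. Over all tested genes the median was 0, with 35.9% positive and 45.1% negative.

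The 4 endothelial context genes had mean differences of -0.18 to 0.04 after 5 nm particles. PECAM1, a junctional adhesion molecule, differed by -0.30, -0.23 and 0.00 in replicates 1, 2 and 3 after 5 nm particles, from unexposed values of 10.21, 9.90 and 9.73. NOS3, the endothelial nitric oxide synthase, was lower in each set, by -0.14, -0.13 and -0.06, with a mean of -0.11. TIE1, an orphan receptor kinase of the angiopoietin system, differed by -0.003, 0.13 and 0.00, and VWF, the von Willebrand clotting factor, had the same value in the unexposed and 5 nm arrays of each set. Of these 4 genes 0 passed in limma in any comparison, with or without the block (adjusted p = 1 each for 5 nm particles without it, and 0.149 for NOS3 with it). After 100 nm particles their mean differences lay between -0.03 and 0.01.

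**Figure D2:**
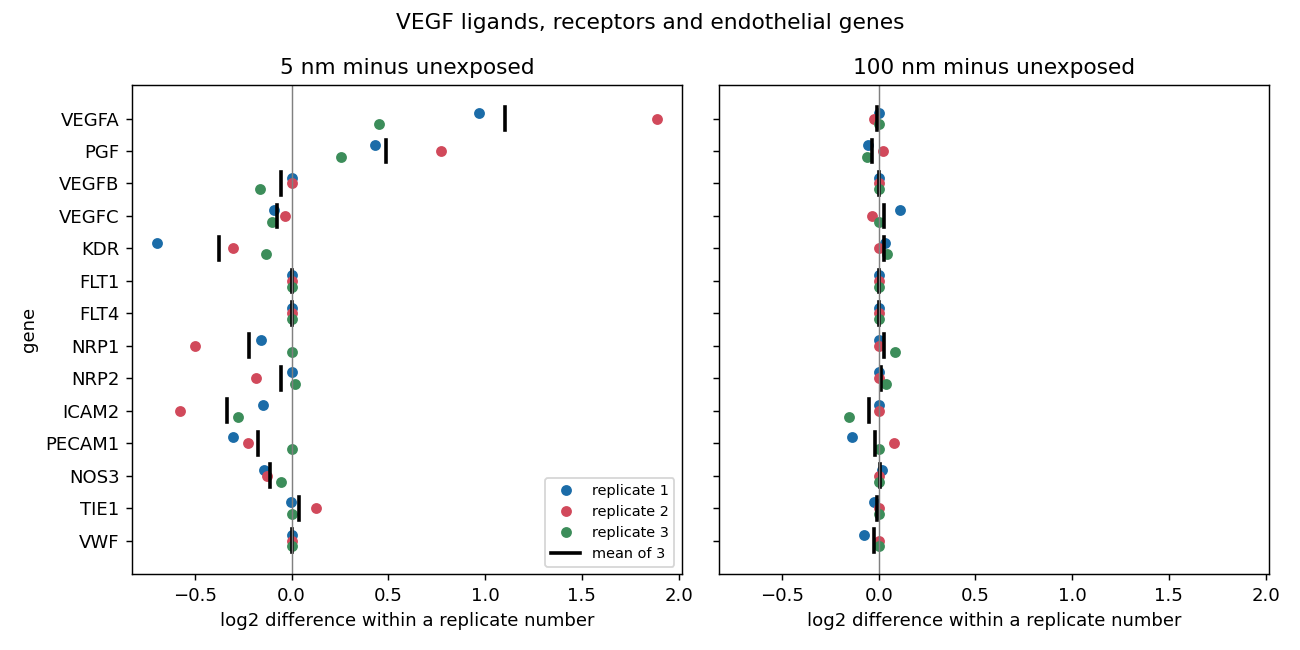
Log2 difference from the unexposed array of the same replicate number (horizontal axis) for the VEGF ligands, their receptors and coreceptors, ICAM2 and the context genes, after 5 nm (left) and 100 nm particles (right). Coloured points are the 3 replicate numbers and black bars their mean; VEGFA and PGF lie right of 0, KDR and ICAM2 left of 0 in all 3 after 5 nm particles, and FLT1, FLT4 and VWF lie at 0 after 5 nm particles.

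Wider endothelial genes were read from 2 lists. Among 24 tested endothelial surface and secreted genes, 7 had positive and 14 negative mean differences after 5 nm particles, with a median of -0.03, and 7 were lower in all 3 sets (13.4% of all tested genes were). EPHB4, a venous receptor for ephrin B2, differed by -0.43, -0.68 and -0.21, and THBD, the anticoagulant thrombomodulin, by -0.48, -0.26 and -0.33. LYVE1, a hyaluronan receptor of lymphatic endothelium, went the other way with 1.17, 2.71 and 0.71, from unexposed values of 6.1, 6.4 and 5.6. Among 20 tested endothelial transcription factors, 6 differed positively and 13 negatively, with a median of -0.05. SOX7, a vascular SOX factor, differed by -0.30, -0.55 and -0.22, KLF2, a flow-responsive factor, by -0.14, -0.60 and -0.08, and ETS2 by 0.37, 1.07 and 0.29. In these 2 lists 0 members passed in limma in any of the 3 comparisons, with or without the block.

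Genes around ICAM2 did not share a direction. ICAM1, the inflammation-induced family member, differed by 0.64, 0.15 and 0.04 in replicates 1, 2 and 3 after 5 nm particles, while ICAM3, mainly a leukocyte gene, differed by 0.00, -0.51 and -0.25. CD209, a lectin that binds ICAM proteins, differed by 0.53, 0.03 and 0.00. Of the 6 tested family members and partners, which include the cytoskeletal linkers EZR, MSN and RDX, 3 had positive and 2 negative mean differences with a median of 0.08, and 0 passed with or without the block.

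Genes that carry the signal from KDR into the cell were mixed. Of 20 tested signalling genes of 43 listed, 10 had positive and 9 negative mean differences after 5 nm particles, with a median of 0.01, and 6 were higher in all 3 sets (8.03% of all tested genes were). SPHK1, a kinase that makes sphingosine 1-phosphate, was higher by 1.03, 1.08 and 0.66 without passing in limma (adjusted p = 1, and 0.0628 with the block). The 5 nm arrays of SPHK1 lay above all unexposed arrays (1.41% of tested genes did so) and overlapped the 100 nm arrays. YES1, a SRC-family kinase, differed by 0.37, 0.90 and 0.53. MAP2K1, the kinase MEK1 of the ERK pathway, differed by 0.42, 0.40 and 0.28. It was among the 36 genes (0.296%) called higher with the block (adjusted p = 0.0443 in limma, 1 without the block). With the block its adjusted p was 0.0343 without the 5 nm array of replicate 3 and from 0.0641 to 0.26 without any other single array, so the call was lost in 8 of 9 such fits.

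Of 8 tested genes that VEGF is known to induce in endothelium, 5 had positive differences after 5 nm particles, and the median was 0.20. All 5 were higher in all 3 sets (8.03% of all tested genes were). PTGS2, the inducible cyclooxygenase, was higher by 3.03, 3.60 and 1.19 (adjusted p = 0.36 in limma, and 0.16 with the block). EGR1, an immediate-early factor, was higher by 2.86, 1.79 and 1.14, and RCAN1, a calcineurin inhibitor that VEGF induces, by 0.62, 0.71 and 0.41 (adjusted p = 0.0628 with the block). EGR1 had 2 probe sets and the brighter one is given. DLL4, the Notch ligand of sprouting vessels, picked out after its values were seen, had the same value in the unexposed and 5 nm arrays of each set. None of the 8 passed with or without the block.

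Hypoxia targets and regulators of VEGFA were described as well. Of 13 tested hypoxia targets, 8 had positive and 4 negative mean differences, with a median of 0.05 and none past the threshold with or without the block. HK2, hexokinase 2, differed by 0.16, 0.75 and 0.18, NDRG1 by 0.26, 0.44 and 0.10 and ANKRD37 by 0.09, 0.62 and 0.00. Of 13 tested regulators of VEGFA expression, 8 were positive and 4 negative with a median of 0.11. In all 3 sets 7 of them were higher (8.03% of all tested genes were). XBP1, a factor of the unfolded protein response, differed by 0.75, 1.36 and 0.62, ERN1, the kinase that activates it, by 0.24, 1.37 and 0.31, and NFE2L2, the antioxidant factor NRF2, by 0.36, 0.89 and 0.27. EPAS1, the endothelial hypoxia-inducible factor, which was picked out after its values were seen, had identical values in the unexposed and 5 nm arrays of replicates 1 and 3 and differed by 0.0023 in replicate 2. HIF1A was not analysed here. None of the regulators passed in limma with or without the block.

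Other angiogenic factors gave a median of 0.00 over 14 tested genes, 8 positive and 3 negative. HBEGF, a ligand of the epidermal growth factor receptor, was higher by 0.60, 1.12 and 0.49 (adjusted p = 1 in limma, and 0.154 with the block). Its 5 nm arrays lay above all unexposed arrays, as in 1.41% of tested genes. PDGFC, a platelet-derived growth factor, differed by -0.45, -0.17 and -0.24 and ANGPTL4 by 0.10, 0.57 and -0.03. None of them passed in limma with or without the block.

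Markers of other cell types were set beside these results. The 10 tested epithelial and lung carcinoma markers had a median difference of 0.00 after 5 nm particles, with 2 positive and 5 negative, and 0 passed. KRT7 and KRT8, keratins of simple epithelium, differed by -0.27, -0.39 and -0.31 and by -0.49, -0.24 and -0.16, and KRT18 by -0.05, 0.00 and -0.26. The summed level of the measured list, on the log2 scale, was 11.15 to 12.05 unexposed, 10.93 to 11.94 with 5 nm and 11.07 to 12.08 with 100 nm. The same sum over the 4 context genes was 11.10 to 11.75, 11.09 to 11.61 and 11.10 to 11.70. KRT7 and KRT8, named with KRT18 for the largest differences of the list, were thus the 2 of 10 tested markers lower in all 3 sets. KDR and ICAM2 were also lower in all 3, as were 13.4% of all tested genes. The part of cell composition in the keratins or in KDR and ICAM2 was not tested. The 4 measured leukocyte markers differed by -0.04 to 0.06 and summed to 11.68 to 12.33 unexposed and 11.61 to 12.33 with 5 nm particles, a sum carried by CD68, a lysosomal protein. Of the mural and fibroblast markers RGS5, a G-protein regulator, reached the floor. It differed by -0.21, -0.19 and -0.14, with 5 nm arrays below all unexposed ones (0.469% of tested genes were), and was called with the block (adjusted p = 0.0462 in limma, 1 without it), where 0.354% of genes were called lower. Its adjusted p with the block was 0.0068 without the 5 nm array of replicate 3 and from 0.0673 to 0.26 without any other single array. After 100 nm particles the medians of the 13 lists lay between -0.01 and 0.03, and 0 members of any list passed with or without the block.

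**Figure D3:**
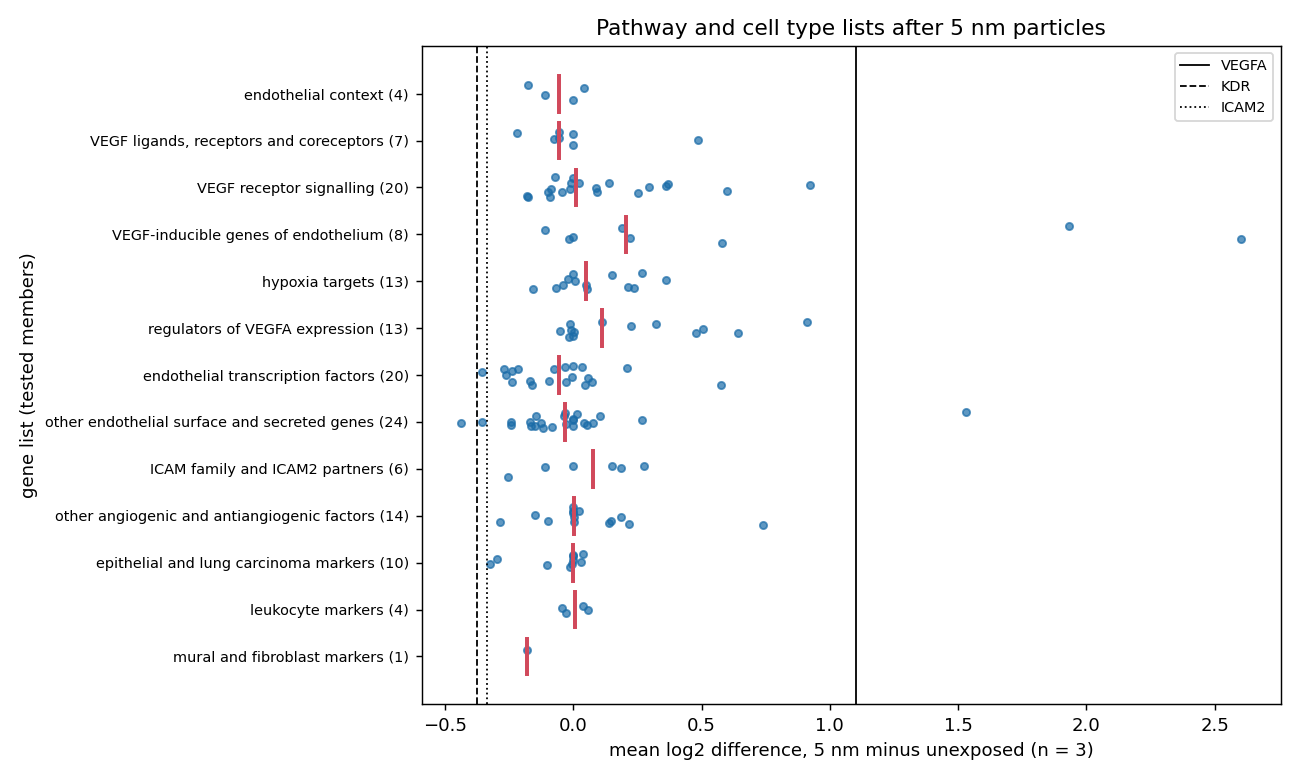
Mean log2 difference between 5 nm and unexposed arrays (horizontal axis, mean of 3 replicate numbers) for each tested gene (blue points) of each list, with the list's median as a red bar and the number of tested members in brackets. Vertical lines mark VEGFA (1.10), KDR (-0.38) and ICAM2 (-0.33); list medians lie near 0 except for VEGF-inducible genes (0.20), VEGFA regulators (0.11) and the single mural gene (-0.18), and the points beyond the VEGFA and KDR lines are PTGS2, EGR1, LYVE1 and EPHB4.

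The genes whose pattern over the 9 arrays was most like each of the 3 were found by Pearson's correlation after subtracting the mean of each replicate number. For VEGFA they were GZF1 (r = 0.999), ANKRD11, DEDD2, CHMP1B and NDRG1 (r = 0.998 each). DEDD2 was higher by 1.07, 2.27 and 0.62 after 5 nm particles and CHMP1B by 0.66, 1.33 and 0.40. For KDR they were TOMM22 (r = 0.997), TTC13 (r = 0.995), POLR2D (r = 0.994), KRT8 (r = 0.993) and CLPX (r = 0.991), with CLPX at -0.45, -0.24 and -0.15. For ICAM2 they were DMAC2 (r = 0.997), CSKMT (r = 0.994), PUDP, OXA1L (r = 0.993 each) and NFE2L3 (r = 0.992), with CSKMT at -0.33, -1.07 and -0.55. No name appears in more than 1 of these 3 sets. With the r values among the 3 genes themselves, given next, no gene could be this close to 2 of them. PECAM1, NOS3, TIE1 and VWF are in none, but 5 places among 12155 genes leave little room for any given gene. Among the 3 genes themselves, r was -0.95 between VEGFA and ICAM2, -0.77 between VEGFA and KDR and 0.60 between KDR and ICAM2. The signs of these values largely follow from choosing the genes for their directions after 5 nm particles. The 9 points share 3 sets and an exposure, and the genes were ranked out of 12155, so these values describe the likeness only.

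**Figure D4:**
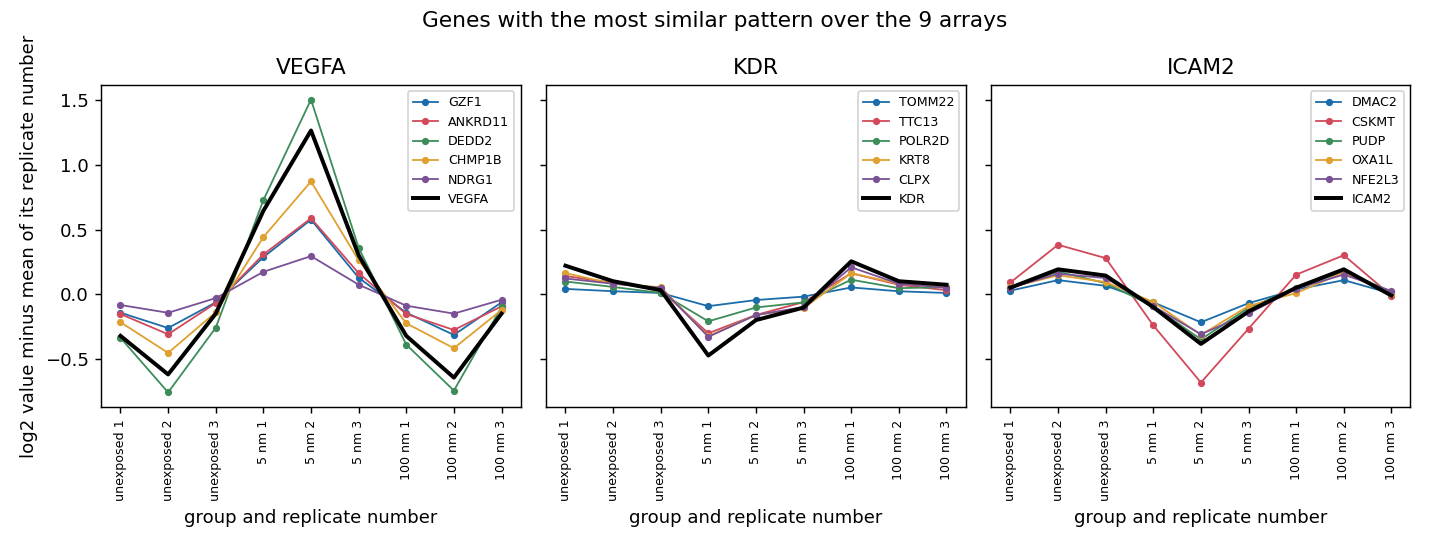
Log2 value minus the mean of the 3 arrays of its replicate number (vertical axis) on the 9 arrays, for VEGFA, KDR and ICAM2 (black) and the 5 genes most correlated with each (colours). VEGFA and its neighbours are highest on the 5 nm array of replicate 2, KDR and its neighbours lowest on that of replicate 1, and ICAM2 and its neighbours lowest on that of replicate 2.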

How the data were processed

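Per the submitters' processing notes, the authors made the deposited log2 intensities of 53617 probe sets with RMA in Affymetrix Expression Console 1.3.1, from 300 ng of total RNA per array. Which arrays were summarised together was not stated, nor was a genome build. Of the probe sets, 16098 carried a single gene symbol, 0 carried several and 37519 were unnamed here. Entrez identifiers gave current symbols, and the brightest probe set stood for each of 14884 genes. The 12155 genes with a log2 value of at least 5 on at least 3 arrays were tested with limma 3.58.1, run in R 4.3.3 (linear models with eBayes on 9 arrays, group means, 6 residual degrees of freedom, Benjamini-Hochberg adjusted p under 0.05), and the code was tested on simulated data. Arrays of the same number deviated from their group means together (r = 0.788 to 0.958 over 9 pairs, against -0.575 to -0.275 over 18 pairs of different numbers). The largest quantile gap of a pair of arrays was at most 0.0529 within a number and at least 0.289 across numbers. Arrays were therefore treated as paired by number, and the blocked fit (4 residual degrees of freedom) stands beside results it changes. Whether the offsets between numbers came from the cultures or the processing was not tested. The genes, the 13 lists and the naming rule were chosen with earlier results of these data known. Named were the 3 genes, the context and VEGF family genes, the 3 members of each other list with the largest 5 nm difference, and the 5 genes most correlated with each of the 3. List symbols without a named probe set were not analysed here. Alternatives were other scalings, floors, probe set rules and variance priors, fits of only the groups compared and arrays left out. The number of arrays limits the precision.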

Additional observations from a re-analysis of the deposited data

Results flagged for a closer look

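In 3 genes of the lists every replicate number differed one way after 5 nm particles and the opposite way after 100 nm particles, against the same unexposed arrays. The 13 lists held 237 symbols, not all of them tested. Of all 12155 tested genes, 976 were higher in all 3 sets after 5 nm particles and 171 lower in all 3 after 100 nm particles. The other way, 1626 were lower in all 3 after 5 nm particles and 152 higher in all 3 after 100 nm particles. How many genes met both conditions of either pair was not counted, so no share over all genes stands beside the list genes. Mean differences were 0.60 and -0.02 for YES1, 2.61 and -0.08 for PTGS2, and 0.27 and -0.01 for NDRG1. The 100 nm differences in replicates 1, 2 and 3 were small. They were -0.05, -0.01 and -0.01 for YES1 and -0.13, -0.07 and -0.03 for PTGS2. For NDRG1 they were -0.0055, -0.0064 and -0.0128. The gap between the particles, tested as 5 nm minus 100 nm, did not pass in limma (adjusted p = 1 for YES1, 0.351 for PTGS2 and 1 for NDRG1). That comparison does not test whether the directions from unexposed cells were opposite. The 3 groups of 3 arrays are too small for a check of outlying arrays.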

How the results depend on the processing

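VEGFA kept a positive difference and KDR and ICAM2 a negative one, both for 5 nm minus unexposed and for 5 nm minus 100 nm. This held under all 8 alternatives that kept every array of the groups compared. It also held under all 18 that left out an array, with or without the replicate block. These directions were fixed by the choice of genes and are given as a description. The block, the fit of only the groups compared, the other floors, the probe set rule and the variance prior cannot change these differences. Leaving out an array of the group not compared cannot change them either. Over the 8, the 5 nm minus unexposed difference was 1.10 to 1.11 for VEGFA, -0.38 to -0.33 for KDR and -0.34 to -0.33 for ICAM2. Leaving out 1 array gave 0.88 to 1.36, -0.70 to -0.092 and -0.50 to -0.13 without the block and 0.71 to 1.43, -0.49 to -0.22 and -0.41 to -0.20 with it. For 5 nm minus 100 nm it gave 0.88 to 1.37, -0.73 to -0.11 and -0.45 to -0.08 without the block and 0.71 to 1.44, -0.52 to -0.24 and -0.36 to -0.15 with it. For 100 nm minus unexposed the sign changed with the array left out: -0.17 to 0.17 for VEGFA, -0.29 to 0.36 for KDR and -0.15 to 0.019 for ICAM2, and -0.20 to 0.20, -0.058 to 0.10 and -0.14 to 0.014 with the block, where VEGFA was 0.023 and 0.15 without the unexposed array of replicate 1 or 3 and KDR -0.039 without that of replicate 3. Genes called numbered 9 for 5 nm minus unexposed and 8 for 5 nm minus 100 nm, and 79 and 75 with the replicate block, 19 and 21 with quantile normalization over the 9 arrays and 15 each with a floor of 6; leaving out 1 array gave 6 to 15 and 6 to 19 without the block and 2 to 446 and 7 to 449 with it (131, 326 and 446, then 131, 330 and 449, without the 5 nm array of replicate 1, 2 or 3, and 14 for the second without the 100 nm array of replicate 2), and for 100 nm minus unexposed 0 without the block and 0 to 1 with it. List members called numbered 0 in each comparison, 2 with the block for 5 nm minus unexposed and 2 for 5 nm minus 100 nm (MAP2K1 and RGS5), and with the block and 1 array left out 0 to 9 and 0 to 8 (1, 5 and 9, then 1, 4 and 8, without the 5 nm array of replicate 1, 2 or 3). The cause of these shifts was not tested. The block with 1 array left out was added after the data were seen.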
